A study of Homo sapiens with 8 samples.

Results

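The tricarboxylic acid cycle, with the enzymes that bring pyruvate, glutamate and aspartate carbon into it, was followed in RNA bound to the translation initiation factor eIF3d in HEK293T cells, a human line from embryonic kidney with the large T antigen of SV40. The set held 34 of the 57978 genes present in the deposited tables, taken by their gene symbols: 20 cycle enzymes and subunits, 7 genes of pyruvate entry, 4 genes of malic enzymes and ATP citrate lyase, and 3 genes of glutamate and aspartate metabolism. All cells, controls included, expressed eIF3d-TEV, the factor with a cleavage site for TEV protease, which was captured on anti-HA magnetic beads after crosslinking with ultraviolet light of 254 nm and then released from the eIF3 complex by the protease. Cells spent 48 h in complete medium, which was DMEM with 10% FBS, or in glucose-free DMEM with 10% dialyzed FBS. The groups were complete input, complete immunoprecipitate (IP), glucose-free input and glucose-free IP, with 2 libraries each, made from polyadenylated RNA. The media also differ in serum dialysis, and each medium has a table of its own, so glucose, serum and table cannot be told apart. The labels do not say whether the cells were 1 clone or whether replicates are separate cultures, and p-values therefore cover the spread of these libraries alone, which may be technical. An IP of untagged cells was not analysed here.

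In the tricarboxylic acid cycle, acetyl groups are joined to oxaloacetate and oxidised to carbon dioxide in the mitochondrial matrix, which feeds electrons to the respiratory chain and carbon to biosynthesis. Pyruvate from glycolysis enters through the mitochondrial pyruvate carrier and the pyruvate dehydrogenase complex, and glutamate enters through glutamate dehydrogenase or the aminotransferases. The subunit eIF3d is known to bind the cap of some mRNAs and to direct a form of initiation that does not use eIF4E.

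Library depth, recovered from the steps in the RPKM values (reads scaled to exon length and to library size), ran from 8656878 to 43400702 reads, and the 34 genes took 12707 to 36600 of them per library. Mitochondrial ribosomal RNA made up 26.8% to 50.7% of the reads in the inputs and 0.399% to 10.6% in the IPs, and nuclear protein-coding genes 27.4% to 29.1% and 53.7% to 65.0%. RPKM is a share of the library, so every library was scaled to 1 common median of 2.45 RPKM over the 10100 genes with a mean of at least 1 RPKM. All directions below are relative to that median gene. The filter used the mean of deposited values, which the IPs weigh most. The medians of the tested genes were 0.833 to 1.75 RPKM in the inputs and 4.55 to 6.49 RPKM in the IPs. A median over genes chosen in another way was not tried. The scaling took a shift of 1.68 on the log2 scale out of the IP comparison in complete medium and 2.81 in glucose-free medium. Replicate libraries correlated across tested genes at r = 0.900 to 0.994 on the log2 scale, with the complete IPs the least alike. Of 6 genes known from HEK293 lines, VIM, KRT18, NEFM and NEFL were above 1 RPKM in every library, while PAX2 and LHX1 were at most 0.337 and 0.147 RPKM in the inputs. The 8 markers of other lineages stayed under 1 RPKM in every library except for HBA1, which reached 10.0 RPKM. The part of these library differences in the results was not tested.

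Of the 34 genes, 30 passed the filter on low values. The other 4 were the malic enzymes ME1, ME2 and ME3, which turn malate into pyruvate, and SUCLA2, the ATP-forming subunit of succinate-CoA ligase. ME1 is cytosolic, and its scaled RPKM was 0.783 and 1.04 in complete input and 0.521 and 0.534 in complete IP, and 1.0 and 1.35 in glucose-free input and 0.658 and 0.400 in glucose-free IP. ME2, a mitochondrial form, was at 0.182 and 0.331 in complete input and 0.150 and 0.434 in complete IP, and at 0.394 and 0.366 in glucose-free input and 0.304 and 0.222 in glucose-free IP. The other mitochondrial form, ME3, held 0 to 8 reads per library, so no comparison of it could be made at this depth. SUCLA2 was at 0.162 and 0.257 in complete input and 0.103 and 0.184 in complete IP, and at 1.48 and 1.64 in glucose-free input and 0.429 and 0.396 in glucose-free IP. Its scaled values were higher in the glucose-free inputs than in all other libraries. Its RPKM as deposited was instead 0.504 and 0.599 in glucose-free input and higher, at 0.983 and 1.05, in glucose-free IP, and it was not tested. SDHD, with a mean of 1.11 RPKM as deposited, passed the filter through its glucose-free IPs, at 2.73 and 3.13. It was at most 0.942 RPKM in the other libraries.

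The first comparison asked which of these mRNAs were over- or under-represented in the eIF3d IP against the input. Relative to the median gene, 15 of the 30 tested genes were lower in the complete IP and 20 in the glucose-free IP, and 0 were higher in either, whereas RPKM as deposited gave 12 higher and 4 lower for complete medium and 21 higher and 1 lower for glucose-free medium. The test was limma on log2(scaled RPKM + 1), with Benjamini-Hochberg adjustment over all tested genes and a threshold of 0.05. Among all tested genes, 29.9% were called lower and 30.0% higher in the complete IP, and 32.2% lower and 27.6% higher in the glucose-free IP. With RPKM as deposited, 63.6% of all tested genes were called higher and 12.3% lower in the complete IP, and 81.7% and 5.49% in the glucose-free IP. The median log2 change of the 30 genes was -0.58 in complete medium, against 0.026 over all tested genes, and -1.01 in glucose-free medium, against -0.018. At an unadjusted p under 0.05, 0 of the 30 were higher in either medium, and 15 and 21 were lower. Of all 10100 tested genes, 6480 and 6491 were under 0.05 in either direction. By limma's voom method on recovered reads, 0 of the 30 were higher. The libraries of input and IP did not overlap for 19 genes lower in the complete IP, against 36.1% of all tested genes, and for 26 lower in the glucose-free IP, against 45.9%. In the other direction, 0 and 1 did not overlap, against 37.9% and 44.6%, and the 1 was OGDH. The same 15 genes were lower in both media, 5 more passed in glucose-free medium alone, and 10 passed in neither.

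**Figure D1:**
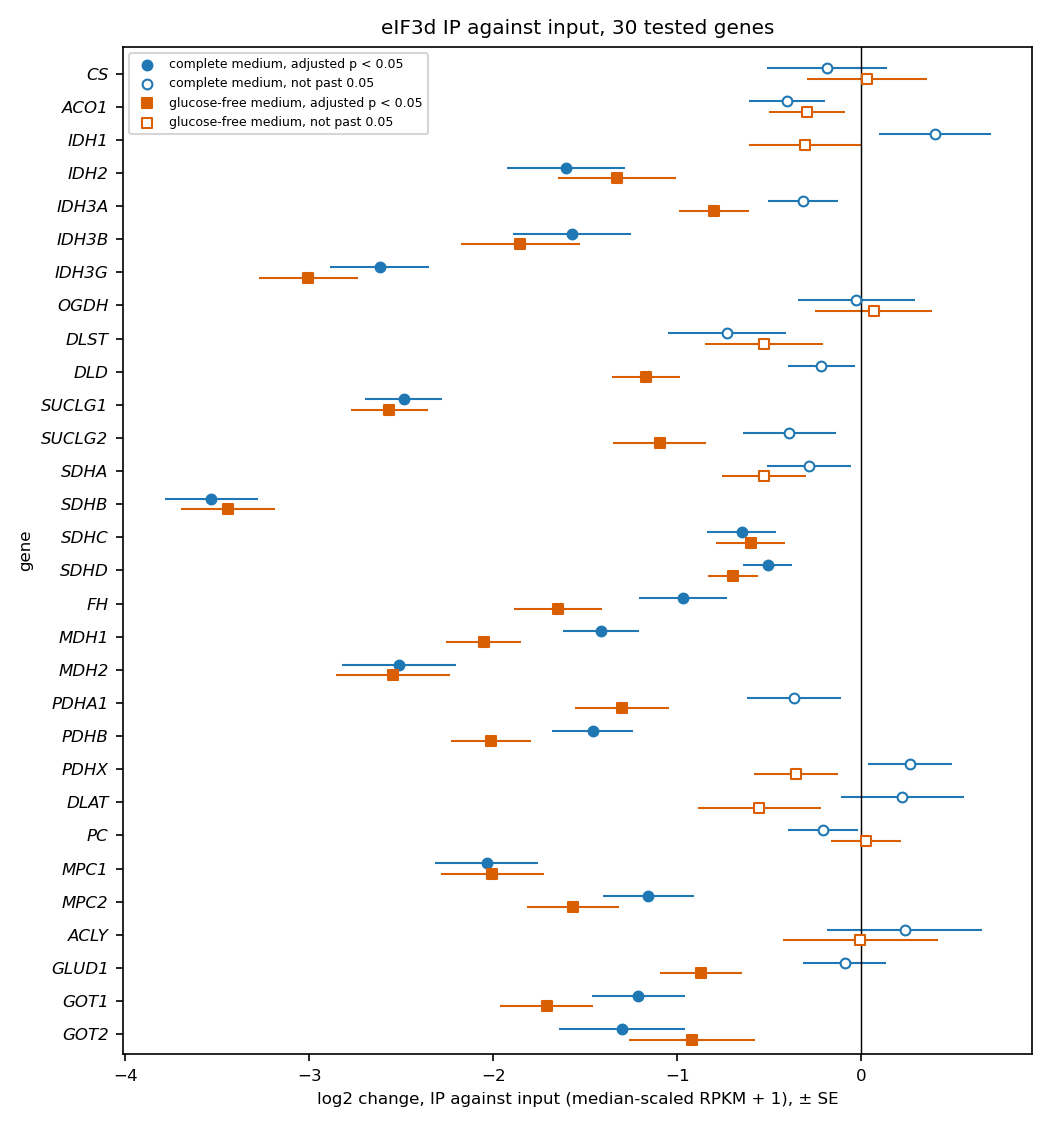
Log2 change of eIF3d IP against input (x axis, median-scaled RPKM + 1, with its SE) for the 30 tested genes (y axis) in complete and glucose-free medium. SDHB, IDH3G, MDH2, SUCLG1 and MPC1 lie at -2.00 or below in both media, while CS and OGDH lie near 0. With RPKM as deposited most of the 30 genes lie above 0 (12 called higher in the complete IP and 21 in the glucose-free IP). On that scale SDHB, IDH3G and SUCLG1 stay below 0 in both media.

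Succinate dehydrogenase, which oxidises succinate to fumarate and is also complex II of the respiratory chain, has 4 subunits, whose mRNAs had unlike values. SDHB (ENSG00000117118; chromosome 1, 17018722 to 17054170, minus strand, GRCh38) encodes the iron-sulfur subunit. Its scaled RPKM was 55.2 and 42.2 in complete input and 3.04 and 3.48 in complete IP, and 73.2 and 70.3 in glucose-free input and 5.67 and 5.70 in glucose-free IP. The inputs and IPs did not overlap in either medium, and the log2 changes of -3.53 ± 0.255 (SE; adjusted p = 3.26e-05) in complete medium and -3.44 ± 0.255 (SE; adjusted p = 3.17e-05) in glucose-free medium were the lowest of the 30. SDHB was also lower in both IPs with RPKM as deposited, where it read 27.7 and 30.1 in complete input, 6.06 and 6.47 in complete IP, 24.9 and 25.6 in glucose-free input and 13.0 and 15.1 in glucose-free IP. SDHA (ENSG00000073578; chromosome 5, 218241 to 256700, plus strand, GRCh38) encodes the flavoprotein subunit, which carries the site where succinate is oxidised. It was at 5.78 and 7.28 in complete input and 6.04 and 4.39 in complete IP, and at 6.75 and 6.51 in glucose-free input and 4.55 and 4.05 in glucose-free IP. Its log2 changes of -0.28 ± 0.229 (SE; adjusted p = 0.312) and -0.53 ± 0.229 (SE; adjusted p = 0.0746) did not pass in either medium. SDHC and SDHD encode the membrane anchors. SDHC was at 1.10 and 1.92 in complete input and 0.532 and 0.624 in complete IP, and at 2.27 and 2.42 in glucose-free input and 1.20 and 1.21 in glucose-free IP. SDHD was at 0.665 and 0.531 in complete input and 0.122 and 0.125 in complete IP, and at 2.50 and 2.59 in glucose-free input and 1.19 and 1.18 in glucose-free IP. Both were lower in the IPs of both media, without overlap, with log2 changes of -0.65 and -0.60 for SDHC and -0.51 and -0.70 for SDHD. The deposited scale gave other calls for SDHC and SDHD, which did not pass in complete medium and were higher in the glucose-free IP, at 1.12 (adjusted p = 6.57e-04) and 1.05 (adjusted p = 1.04e-04). On that scale SDHA was called higher in both IPs, at 1.15 (adjusted p = 0.00528) and 1.80 (adjusted p = 1.89e-04). At such low levels the pseudocount of 1 understates a change, and on recovered reads with voom SDHD was at -2.25 (adjusted p = 0.00196) in complete medium. SDHC lost its call in glucose-free medium in each fit that left out 1 glucose-free library (adjusted p up to 0.111), in both media without the filter (adjusted p = 0.0515 and 0.0698), and in complete medium when only the complete libraries were fitted (adjusted p = 0.0633). SDHA, SDHC and SDHD have 3, 4 and 3 named pseudogenes and SDHD shares 12.2% of its exon bases with other genes, so reads could be split or shared there, while SDHB has no overlap and no named pseudogene in the annotation.

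The upstream windows of the 3 SDH subunits with an entry are shown because these mRNAs encode parts of 1 complex and had unlike IP changes. They were read from RefSeq's promoter windows on GRCh38, 250 bases before to 50 after each start, cut to the bases upstream of the annotated gene, 5′ to 3′ on the gene's strand. Capitals mark matches to CGCNTGCG, the core of the motif of NRF1, a regulator of many nuclear genes for mitochondrial proteins, searched on both strands.

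SDHA, chr5:218070-218240, plus strand: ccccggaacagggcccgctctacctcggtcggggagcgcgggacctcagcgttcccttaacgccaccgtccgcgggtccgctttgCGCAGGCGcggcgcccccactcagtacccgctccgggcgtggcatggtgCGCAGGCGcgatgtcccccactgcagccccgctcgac

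SDHB, chr1:17054171-17054282, minus strand: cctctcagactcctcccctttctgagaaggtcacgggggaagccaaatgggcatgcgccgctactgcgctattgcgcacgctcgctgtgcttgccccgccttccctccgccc

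SDHD, chr11:112086623-112086772, plus strand: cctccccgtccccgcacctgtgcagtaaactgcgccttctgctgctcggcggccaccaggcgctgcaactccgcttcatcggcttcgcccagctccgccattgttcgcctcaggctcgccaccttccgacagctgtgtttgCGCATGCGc

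SDHA held 2 matches, SDHD 1 and SDHB 0 in these bases. The counts that follow are over all 250 bases before the start, which for these genes run past the bases shown. Of the 34 genes, 32 had a window, and OGDH and SDHC did not. The NRF1 core was in 8 of the 32 windows (25.0%), those of GLUD1, IDH3A, IDH3G, MPC2, PDHA1, SDHA, SDHD and SUCLA2, against 8.69% of 35116 windows of all genes and 22.3% of those of 6707 tested coding genes. The motif CCGGAAG, of ETS factors, searched on both strands and a different sequence from the first, was in 7 of 32 (21.9%), among them SDHB and SDHD, whose matches lie in the part of the window that is not shown, against 8.52% of all windows and 20.8% of those of tested coding genes. Both shares are near those of the tested coding genes, and a match describes letters, not a bound site.

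**Figure D2:**
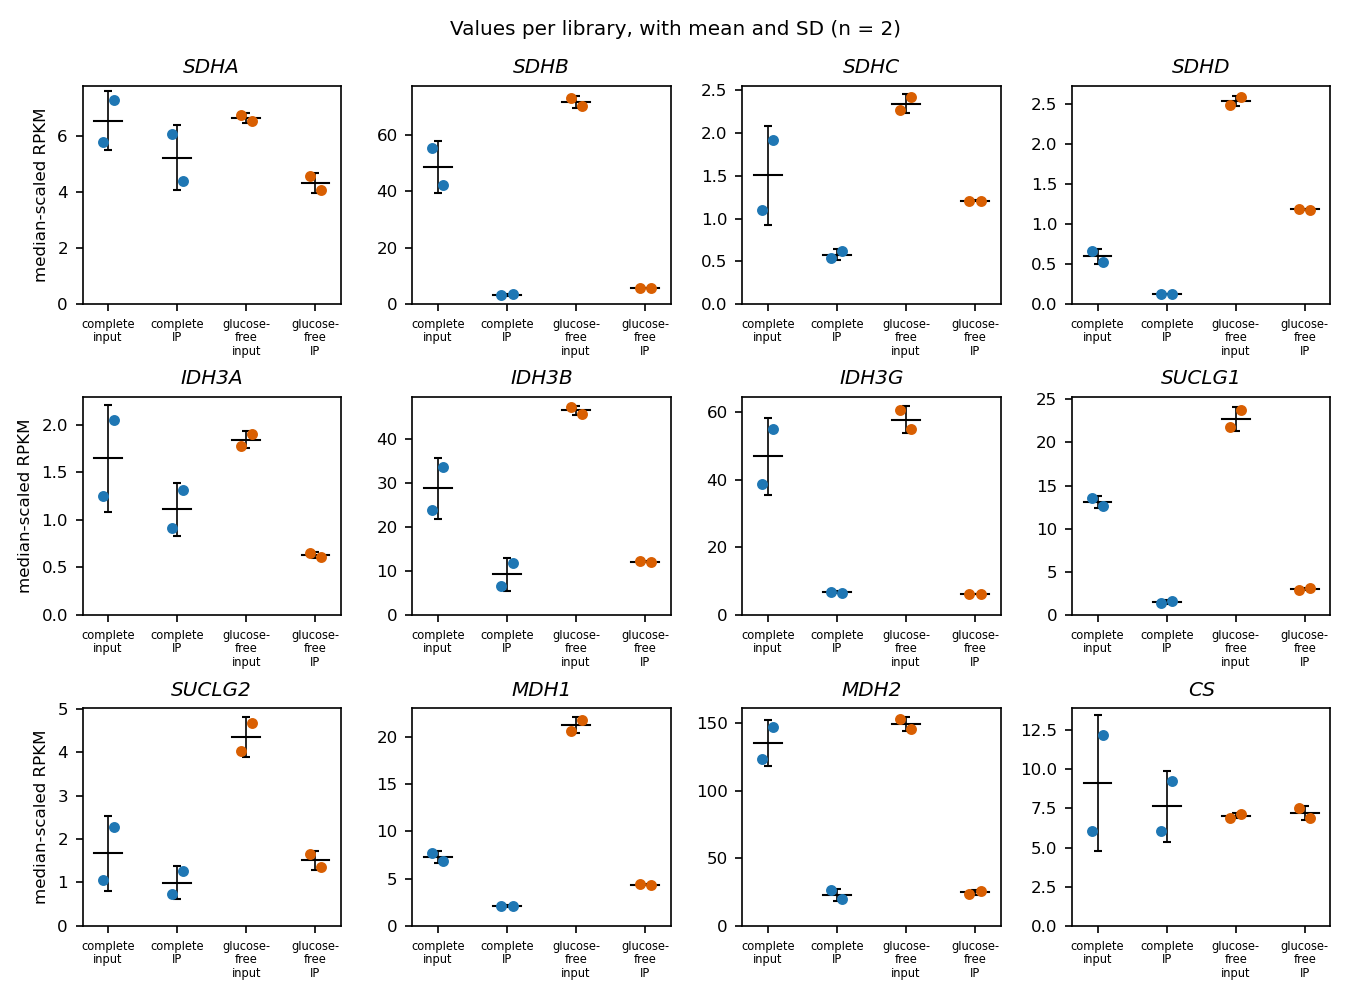
Median-scaled RPKM (y axis, starting at 0) of selected genes in the 8 libraries, by group (x axis), with points for libraries, bars for the mean and whiskers for its SD (n = 2). SDHB, IDH3G, MDH2 and SUCLG1 are lower in every IP library than in every input library once scaled, a direction that with RPKM as deposited is called in both media for SDHB alone, and CS overlaps in both media.

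Isocitrate dehydrogenase 3, the NAD-dependent enzyme of the cycle, also had subunits with unlike values. IDH3G (ENSG00000067829; chromosome X, 153785766 to 153794523, minus strand, GRCh38), a regulatory subunit, was at 38.7 and 54.9 in complete input and 6.87 and 6.50 in complete IP, and at 60.4 and 54.8 in glucose-free input and 6.29 and 6.28 in glucose-free IP. Its log2 changes were -2.62 ± 0.269 (SE; adjusted p = 8.38e-05) and -3.01 ± 0.269 (SE; adjusted p = 4.97e-05). IDH3B, the other regulatory subunit, was at 23.9 and 33.7 in complete input and 6.62 and 11.9 in complete IP, and at 47.2 and 45.8 in glucose-free input and 12.3 and 12.0 in glucose-free IP. It changed by -1.57 and -1.85 on the log2 scale and was lower in both IPs (adjusted p = 0.00289 and 0.00113). With quantile normalization IDH3B did not pass (-0.76 and -0.44; adjusted p = 0.124 and 0.380). IDH3A, the catalytic subunit, was at 1.25 and 2.05 in complete input and 0.918 and 1.31 in complete IP, and at 1.78 and 1.91 in glucose-free input and 0.657 and 0.610 in glucose-free IP. It passed in glucose-free medium, at -0.80 ± 0.189 (SE; adjusted p = 0.00588), and not in complete medium, at -0.32 ± 0.189 (SE; adjusted p = 0.178). On the deposited scale IDH3G was lower in complete medium and at -0.37 (adjusted p = 0.359) in glucose-free medium, and IDH3B did not pass, at 0.0014 and 0.83. IDH3A was then called higher in both IPs, at 0.64 (adjusted p = 0.0248) and 0.63 (adjusted p = 0.0222). IDH3A shares 38.9% of its exon bases with ACSBG1 and CIB2 on the other strand, and IDH3G 10.2% with SSR4, and the use of strand in counting is not given in the sources used here.

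Succinate-CoA ligase makes a nucleoside triphosphate from succinyl-CoA. SUCLG1, its shared alpha subunit, was at 13.6 and 12.6 in complete input and 1.37 and 1.67 in complete IP, and at 21.8 and 23.7 in glucose-free input and 2.92 and 3.10 in glucose-free IP. The groups stood apart in both media, with log2 changes of -2.49 ± 0.209 (SE; adjusted p = 3.98e-05) and -2.57 ± 0.209 (SE; adjusted p = 4.15e-05). SUCLG2, the GTP-forming subunit, was at 1.06 and 2.28 in complete input and 0.727 and 1.27 in complete IP, and at 4.03 and 4.67 in glucose-free input and 1.66 and 1.35 in glucose-free IP. It passed in glucose-free medium, at -1.09 ± 0.253 (SE; adjusted p = 0.00525), and not in complete medium, at -0.39 (adjusted p = 0.208). FH, fumarate hydratase, which makes malate, was at 4.76 and 5.03 in complete input and 1.56 and 2.53 in complete IP, and at 21.2 and 19.5 in glucose-free input and 6.52 and 5.18 in glucose-free IP. It was lower in both IPs, by log2 changes of -0.97 (adjusted p = 0.00737) and -1.65 (adjusted p = 4.30e-04). FH and SUCLG2 were called higher in the glucose-free IP with RPKM as deposited, at 0.91 (adjusted p = 0.0120) and 0.89 (adjusted p = 0.0111), and did not pass in complete medium. SUCLG1 was lower on that scale in complete medium, at -1.18 (adjusted p = 0.00248), and did not pass in glucose-free medium. With length and GC trends removed, FH in complete medium (-0.37; adjusted p = 0.114) and SUCLG2 in glucose-free medium (-0.53; adjusted p = 0.0708) did not pass.

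Enzymes that exist in a mitochondrial and a cytosolic form are considered as pairs. MDH2, the mitochondrial malate dehydrogenase and the most abundant of the set per length in the inputs, was at 123 and 147 in complete input and 26.3 and 19.7 in complete IP, and at 153 and 146 in glucose-free input and 23.5 and 26.2 in glucose-free IP. MDH1, its cytosolic partner in the malate-aspartate shuttle, was at 7.72 and 6.88 in complete input and 2.16 and 2.07 in complete IP, and at 20.6 and 21.8 in glucose-free input and 4.40 and 4.31 in glucose-free IP. Both were lower in both IPs, MDH2 by log2 changes of -2.51 and -2.54 and MDH1 by -1.41 and -2.05, with adjusted p from 7.34e-05 to 4.62e-04. IDH2, the mitochondrial NADP-dependent isocitrate dehydrogenase, was at 21.8 and 13.1 in complete input and 6.42 and 3.68 in complete IP, and at 28.4 and 27.2 in glucose-free input and 10.7 and 10.3 in glucose-free IP. IDH1, the cytosolic one, was at 0.506 and 1.55 in complete input and 0.930 and 2.47 in complete IP, and at 0.915 and 0.777 in glucose-free input and 0.449 and 0.544 in glucose-free IP. IDH2 was lower in both IPs, at -1.61 ± 0.321 (SE; adjusted p = 0.00258) and -1.33 ± 0.321 (SE; adjusted p = 0.00661), while IDH1 did not pass, at 0.40 and -0.30. The direction of IDH2 turned with RPKM as deposited, which called it higher in the glucose-free IP, at 1.31 (adjusted p = 0.00302), and did not call it in complete medium. MDH1 and MDH2, at 0.47 and 0.21 in the glucose-free IP on that scale, did not pass in either medium. IDH1 was called higher in both IPs with that scale, at 1.30 and 0.78. With quantile normalization MDH2 did not pass in either medium (-0.66 and -0.28; adjusted p = 0.163 and 0.568), nor did IDH2 in glucose-free medium (-0.19; adjusted p = 0.651), which also missed with log values centred after the log (-0.60; adjusted p = 0.125). ACO1, the cytosolic aconitase that also serves as an iron sensor, was at 1.11 and 2.21 in complete input and 1.08 and 0.862 in complete IP, and at 0.629 and 0.846 in glucose-free input and 0.494 and 0.336 in glucose-free IP, and did not pass (adjusted p = 0.119 and 0.245). With length and GC trends removed ACO1 was called lower in both IPs, at -1.14 (adjusted p = 0.00112) and -0.77 (adjusted p = 0.00793). With RPKM as deposited it was instead called higher in the glucose-free IP, at 0.67 (adjusted p = 0.0187).

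Citrate synthase and the core of the oxoglutarate dehydrogenase complex gave other values. CS, which makes citrate and opens the cycle, had means ± SD (n = 2) of 9.13 ± 4.35 in complete input and 7.62 ± 2.26 in complete IP, and of 7.03 ± 0.175 and 7.23 ± 0.439 in glucose-free medium. OGDH, the first enzyme of the oxoglutarate dehydrogenase complex, was at 5.09 and 10.7 in complete input and 8.79 and 6.03 in complete IP, and at 3.45 and 3.63 in glucose-free input and 3.88 and 3.65 in glucose-free IP. Their log2 changes were -0.19 and 0.034 for CS and -0.026 and 0.070 for OGDH, with adjusted p from 0.642 to 0.954. Both were called higher in both IPs with RPKM as deposited, CS at 1.29 and 2.44 and OGDH at 1.44 and 2.19. With length and GC trends removed, CS was called lower in the complete IP, at -0.77 (adjusted p = 0.0318). DLST, the second enzyme of that complex, ranged from 3.74 to 11.2 scaled RPKM over the 8 libraries and had log2 changes of -0.73 and -0.53 (adjusted p = 0.0792 and 0.186). With length and GC trends removed DLST was called lower in both IPs, at -0.97 (adjusted p = 0.0104) and -0.89 (adjusted p = 0.0156). DLD, the dehydrogenase shared by the oxoglutarate and pyruvate complexes, was at 0.937 and 1.10 in complete input and 0.605 and 0.880 in complete IP, and at 4.76 and 5.78 in glucose-free input and 1.95 and 1.62 in glucose-free IP. It was lower in the glucose-free IP, at -1.17 ± 0.183 (SE; adjusted p = 6.56e-04), and did not pass in complete medium, at -0.21 ± 0.183 (SE; adjusted p = 0.334). DLD was called higher in both IPs with RPKM as deposited, at 0.57 (adjusted p = 0.0374) and 0.92 (adjusted p = 0.00249), and DLST in the glucose-free IP, at 1.95 (adjusted p = 5.43e-04). In all, 10 of 19 tested cycle genes were lower in the complete IP and 13 in the glucose-free IP relative to the median gene. Of all tested genes, 29.9% and 32.2% were lower. With RPKM as deposited, SDHB, SUCLG1 and IDH3G were the cycle genes still called lower in complete medium and SDHB the only one in glucose-free medium. The shares of all tested genes called lower were then 12.3% and 5.49%.

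Of 7 genes of pyruvate entry, 3 were lower in the complete IP and 4 in the glucose-free IP relative to the median gene. The shares of all tested genes called lower were 29.9% and 32.2%. With RPKM as deposited MPC1 alone was called lower, in complete medium, against 12.3% of all tested genes. MPC1 and MPC2 form the carrier that brings pyruvate into mitochondria. MPC1 was at 13.5 and 7.43 in complete input and 1.55 and 1.87 in complete IP, and at 16.9 and 17.8 in glucose-free input and 3.30 and 3.87 in glucose-free IP. MPC2 was at 2.76 and 1.27 in complete input and 0.352 and 0.268 in complete IP, and at 9.01 and 9.15 in glucose-free input and 2.17 and 2.65 in glucose-free IP. Input and IP did not overlap for either gene in either medium, with log2 changes of -2.03 and -2.00 for MPC1 and -1.16 and -1.57 for MPC2 (adjusted p from 3.51e-04 to 0.00374). MPC2 shares 22.5% of its exon bases with DCAF6 on the other strand. PDHB, the beta subunit of pyruvate dehydrogenase, was at 5.49 and 7.34 in complete input and 1.72 and 1.63 in complete IP, and at 13.5 and 13.6 in glucose-free input and 2.94 and 2.29 in glucose-free IP. It was lower in both IPs, at -1.46 ± 0.218 (SE; adjusted p = 5.49e-04) and -2.01 ± 0.218 (SE; adjusted p = 1.05e-04). PDHA1, the alpha subunit whose phosphorylation switches the enzyme off, was at 6.63 and 10.4 in complete input and 6.10 and 6.39 in complete IP, and at 17.6 and 18.3 in glucose-free input and 6.31 and 7.13 in glucose-free IP. It passed in glucose-free medium, at -1.30 ± 0.255 (SE; adjusted p = 0.00221), and not in complete medium, at -0.36 (adjusted p = 0.246), and it shares 21.3% of its exon bases with MAP3K15. PDHA1 lost that call with log values centred after the log or quantile normalization (adjusted p = 0.0615 and 0.146). The acetyltransferase DLAT, the binding protein PDHX and pyruvate carboxylase PC, which makes oxaloacetate, did not pass in either medium, at log2 changes of 0.22 and -0.55, 0.27 and -0.35, and -0.21 and 0.026. PDHA1, DLAT, PDHX and PC were called higher in both IPs with RPKM as deposited. On that scale MPC2 was higher in the glucose-free IP, at 0.72 (adjusted p = 0.0165), and PDHB passed in neither. Over the 8 libraries DLAT ranged from 1.52 to 5.78 scaled RPKM, PDHX from 1.12 to 2.90 and PC from 1.29 to 2.24.

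Among glutamate and aspartate enzymes, 2 of 3 were lower in the complete IP and 3 of 3 in the glucose-free IP relative to the median gene. Of all tested genes, 29.9% and 32.2% were lower. With RPKM as deposited 0 of the 3 were called lower, against 12.3% and 5.49% of all tested genes. GOT1, the cytosolic aspartate aminotransferase, was at 10.9 and 16.4 in complete input and 4.68 and 5.79 in complete IP, and at 14.9 and 14.4 in glucose-free input and 3.68 and 3.89 in glucose-free IP. GOT2, the mitochondrial form, was at 14.0 and 29.8 in complete input and 8.06 and 7.41 in complete IP, and at 24.4 and 23.8 in glucose-free input and 13.0 and 11.6 in glucose-free IP. GOT1 changed by -1.21 ± 0.254 (SE; adjusted p = 0.00324) and -1.71 ± 0.254 (SE; adjusted p = 4.77e-04), and GOT2 by -1.30 ± 0.341 (SE; adjusted p = 0.00994) and -0.92 ± 0.341 (SE; adjusted p = 0.0434). GLUD1, glutamate dehydrogenase, was at 3.86 and 5.79 in complete input and 4.54 and 4.27 in complete IP, and at 6.68 and 6.76 in glucose-free input and 3.34 and 3.11 in glucose-free IP. It passed in glucose-free medium, at -0.87 ± 0.224 (SE; adjusted p = 0.00885), and not in complete medium, at -0.089 (adjusted p = 0.749). GOT1 shares 19.3% of its exon bases with AL391684.1 on the other strand, and GLUD1 13.2% with SHLD2. GOT2 and GLUD1 lost their call in glucose-free medium in each fit without 1 glucose-free library (adjusted p up to 0.182 and 0.0722), and they have 4 and 5 named pseudogenes. GOT2 also missed in complete medium with log values centred after the log, with quantile normalization or when only the complete libraries were fitted (adjusted p = 0.0522, 0.126 and 0.0531), and GLUD1 in glucose-free medium with the first 2 of these (adjusted p = 0.0788 and 0.0705). In glucose-free medium GOT2 was at 0.23 with quantile normalization, and it missed with log values centred after the log and without the filter (adjusted p = 0.667 and 0.155). GLUD1 was called higher in both IPs with RPKM as deposited, at 1.29 and 1.41, and GOT2 in the glucose-free IP, at 1.72 (adjusted p = 0.00238), while GOT1 passed in neither. ACLY, which splits citrate into acetyl-CoA in the cytosol, was at 19.9 and 46.7 in complete input and 45.9 and 28.6 in complete IP, and at 10.1 and 10.2 in glucose-free input and 12.3 and 8.34 in glucose-free IP. The input and IP values of ACLY overlapped in both media, with log2 changes of 0.24 and -0.0031. With RPKM as deposited ACLY was called higher in both IPs, at 1.86 and 2.50.

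A ratio of 2 genes within a library does not depend on how libraries are scaled, and such ratios of RPKM were set side by side for 12 pairs, 3 of isoenzymes and 9 of subunits of 1 enzyme, the latter chosen after their values were seen and so given as a description with no test. SDHB to SDHA was 9.54 and 5.79 in complete input, 0.504 and 0.792 in complete IP, 10.8 and 10.8 in glucose-free input and 1.25 and 1.41 in glucose-free IP. Per annotated exon base, the iron-sulfur subunit was thus several times the flavoprotein subunit in every input, and in the complete IPs it was the lesser of the pair. SDHB and SDHA have 2462 and 8383 exon bases in the annotation, and SDHA has 3 named pseudogenes. These lengths join all annotated exons of a gene and are not the length of 1 mRNA, and the level of the ratio depends on them. In reads, SDHB and SDHA had 2161 and 771, then 1446 and 850, in the complete inputs. In the glucose-free inputs they had 2086 and 655, then 2733 and 863. The part of length and of split reads in these ratios was not tested. IDH3G to IDH3A was 30.9 and 26.8, then 7.49 and 4.95, 33.9 and 28.7, and 9.58 and 10.3, in the same order of groups. SUCLG1 to SUCLG2 was 12.8 and 5.55, then 1.89 and 1.31, 5.41 and 5.08, and 1.75 and 2.30. For these ratios and for PDHB to PDHA1, which was 0.828 and 0.709, then 0.282 and 0.255, 0.767 and 0.740, and 0.466 and 0.321, all 4 inputs were above all 4 IPs. The other 8 pairs overlapped between inputs and IPs over both media. Within each medium, however, both inputs were above both IPs for 6 of these 8, which were MDH2 to MDH1, IDH2 to IDH1, SDHC to SDHA, SDHD to SDHA, IDH3B to IDH3A and DLST to OGDH. Among them, MDH2 to MDH1 was 6.69 to 21.4 in the inputs and 5.34 to 12.2 in the IPs, and IDH2 to IDH1 was 8.44 to 43.1 and 1.49 to 23.8. GOT2 to GOT1, not among them, overlapped in complete medium, at 1.28 and 1.82 in input and 1.72 and 1.28 in IP. In glucose-free medium GOT2 to GOT1 was instead higher in the IPs, at 3.52 and 2.99, than in the inputs, at 1.64 and 1.65. MPC1 to MPC2 was 4.91 and 5.87 in complete input and 4.39 and 6.97 in complete IP, and 1.87 and 1.95 and 1.52 and 1.46 in glucose-free medium, so all complete libraries were above all glucose-free ones. The gene on top of each ratio was set by hand and was mostly the one with the lower IP change, which favours inputs above IPs. Pairs of other genes were not counted, so the counts of pairs describe these 12 alone.

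**Figure D3:**
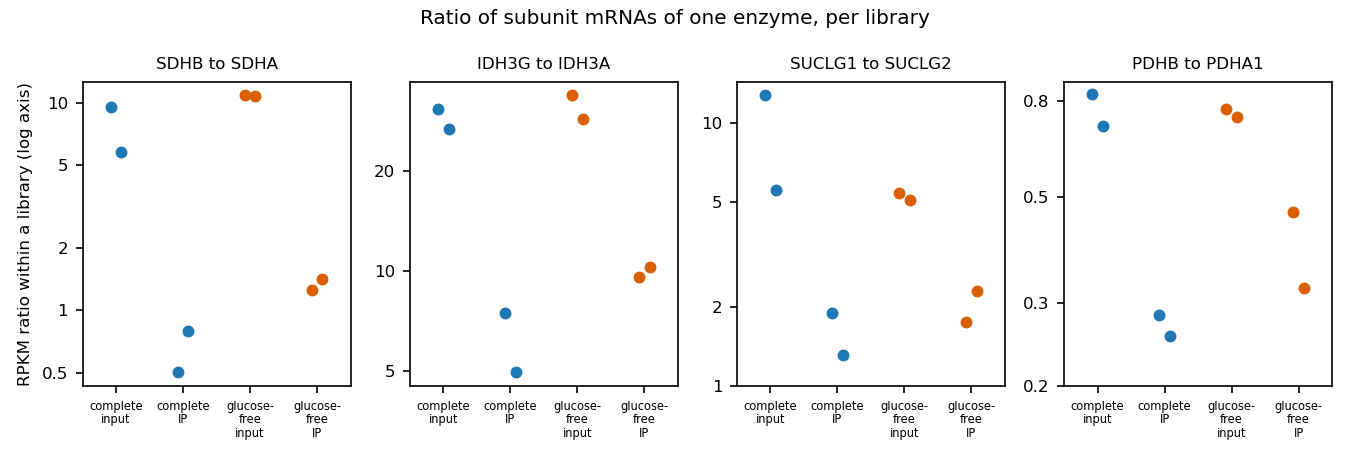
Ratio of RPKM of 2 subunits of 1 enzyme within each library (log y axis) by group (x axis), 1 point per library, for the 4 of 12 pairs whose inputs and IPs did not overlap over both media together. SDHB to SDHA lies at 5.79 to 10.8 in the inputs and at 0.504 to 1.41 in the IPs, and these ratios do not change with the scaling of libraries. The part of exon length in them was not tested, and pairs of other genes were not counted.

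The IP change of the 30 genes went with exon length. Across genes, the log2 change correlated with log2 exon length at r = 0.494 in complete and 0.556 in glucose-free medium, against 0.471 and 0.527 over all 10100 tested genes, which share libraries and are not independent replicates. MPC1 and FH, with 1546 and 2142 exon bases, were among the shortest and were lower, and SDHA, with 8383, did not pass. SDHC, with 14160 exon bases in the annotation, was the longest tested and was lower in both media. The 30 genes had a median of 4389 exon bases and 46.2% GC, against 4101 and 51.2% over all tested genes. With trends of length and GC content removed from each library, 21 were lower and 0 higher in the complete IP, and 22 and 0 in the glucose-free IP. In the same fit, 36.0% of all tested genes were lower and 23.4% higher in the complete IP, and 38.8% and 20.4% in the glucose-free IP. In that fit SDHB stayed at -3.08 and -2.96 and SDHA passed at -1.09 and -1.27, while SDHD, at -0.21 and -0.044, did not pass. Called lower there but not in the main fit were CS, SDHA, DLD, DLST, ACO1, PDHA1, IDH3A and PC in the complete IP. In the glucose-free IP they were SDHA, DLST, ACO1 and PC. FH and SDHD lost their call there in the complete IP, and SUCLG2 and SDHD in the glucose-free IP. The part of length in these results beyond that fit was not tested.

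**Figure D4:**
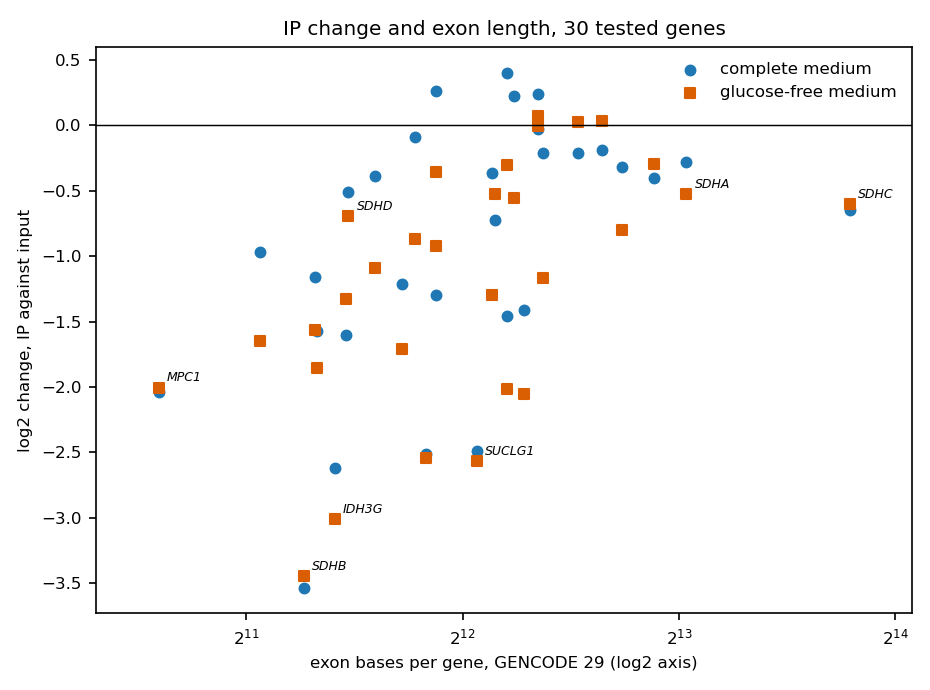
Log2 change of IP against input (y axis, median-scaled RPKM + 1) against exon bases per gene (log2 x axis) for the 30 tested genes in both media. The genes with the lowest changes, SDHB and IDH3G, have 2462 and 2717 exon bases, and SDHA and SDHC, with 8383 and 14160, lie between -0.65 and -0.28; all changes are relative to the median gene and most move above 0 with RPKM as deposited.

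The next comparison asked whether the IP to input ratio differed between media. Of the 30 genes, 0 were called in either direction relative to the median gene, against 1.95% of all tested genes higher and 3.08% lower, whereas with RPKM as deposited 6 were higher in glucose-free medium, against 29.3% of all tested genes. At an unadjusted p under 0.05, 3 were lower, which were DLD, PDHA1 and GLUD1, against 2715 of all 10100 tested genes in either direction. Voom on recovered reads called 0 of the 30. The median difference over the 30 genes was -0.26 on the log2 scale, against -0.026 over all tested genes. DLD differed by -0.95 (95% confidence interval -1.54 to -0.36; adjusted p = 0.0681), PDHA1 by -0.94 (-1.76 to -0.12; adjusted p = 0.143) and GLUD1 by -0.78 (-1.50 to -0.063; adjusted p = 0.157). These 3 differences turned above 0 with RPKM as deposited and did not pass, at 0.34 (adjusted p = 0.427), 0.15 (adjusted p = 0.832) and 0.12 (adjusted p = 0.845). Intervals for genes with the lowest IP to input ratios were -0.73 to 0.91 around 0.090 for SDHB, -1.25 to 0.48 around -0.39 for IDH3G and -0.75 to 0.59 around -0.080 for SUCLG1. These intervals hold for the median scaling alone. With RPKM as deposited SDHB was called higher, at 1.24 (adjusted p = 0.0451), as were IDH2, MPC1, MPC2, SDHC and SDHD. IDH3G, at 0.68 (adjusted p = 0.323), and SUCLG1, at 1.08 (adjusted p = 0.0570), did not pass on that scale. The 5 genes that passed in the glucose-free IP alone were called in neither of these fits and so were not shown to differ between media. Without complete input replicate 2, 3 genes were called lower, and without complete IP replicate 1, 1 was.

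The last comparison asked how the input RNA itself differed between glucose-free and complete medium after 48 h. Relative to the median gene, 9 of the 30 genes were higher without glucose and 1 was lower, against 18.4% and 15.6% of all tested genes, while with RPKM as deposited 3 were higher and 2 lower, against 5.12% and 13.0% of all tested genes. The median log2 change of the 30 was 0.41, against -0.038 over all tested genes, and it was -0.24 with RPKM as deposited. In bulk RNA, fewer cells of a type and less RNA per cell cannot be told apart. Libraries of the media did not overlap for 15 genes higher and 3 lower, against 36.3% and 38.8% of all tested genes.

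FH was at 4.76 and 5.03 in complete input and 21.2 and 19.5 in glucose-free input, the highest log2 change of the set, 1.86 ± 0.239 (SE; adjusted p = 9.27e-04). MPC2 was at 2.76 and 1.27 in complete input and 9.01 and 9.15 in glucose-free input, a change of 1.79 ± 0.249 (SE; adjusted p = 0.00136). The partner of MPC2 in the carrier, MPC1, was at 13.5 and 7.43 in complete input and 16.9 and 17.8 in glucose-free input and did not pass, at 0.73 ± 0.280 (SE; adjusted p = 0.0735). DLD was at 0.937 and 1.10 in complete input and 4.76 and 5.78 in glucose-free input, and changed by 1.63 ± 0.183 (SE; adjusted p = 4.61e-04). These 3 genes, FH, MPC2 and DLD, were also called higher with RPKM as deposited, at 1.05, 0.98 and 0.82. MDH1 was at 7.72 and 6.88 in complete input and 20.6 and 21.8 in glucose-free input, with a change of 1.42 ± 0.205 (SE; adjusted p = 0.00161), and SDHD at 0.665 and 0.531 in complete input and 2.50 and 2.59 in glucose-free input, with 1.15 ± 0.134 (SE; adjusted p = 5.63e-04). The genes SUCLG2, PDHA1, PDHB and SUCLG1 rose on the log2 scale by 1.04, 1.03, 0.98 and 0.75 relative to the median gene (adjusted p from 0.0107 to 0.0249). Each of these 4 lost its call without either glucose-free input (adjusted p up to 0.184) and with RPKM as deposited (adjusted p from 0.405 to 0.954). With RPKM as deposited MDH1 and SDHD did not pass (adjusted p = 0.111 and 0.0666), and with length and GC trends removed SDHD (adjusted p = 0.0644), SUCLG1, at 0.30 (adjusted p = 0.231), and SUCLG2, at 0.38 (adjusted p = 0.221), did not.

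ACLY was the gene that was lower, at 19.9 and 46.7 in complete input and 10.1 and 10.2 in glucose-free input. The 2 complete inputs differed from each other by more than the glucose-free inputs did, and both lay above them. ACLY changed by -1.50 ± 0.421 (SE; adjusted p = 0.0258), was lower with RPKM as deposited too, at -2.09, and lost its call without complete input replicate 2 (-0.91; adjusted p = 0.0996) or without either glucose-free input, and also with quantile normalization, without the filter or with length and GC trends removed (adjusted p = 0.0643, 0.115 and 0.0509). OGDH and ACO1 did not overlap between media either, at 5.09 and 10.7 in complete input and 3.45 and 3.63 in glucose-free input for OGDH and 1.11 and 2.21 in complete input and 0.629 and 0.846 in glucose-free input for ACO1, and did not pass (adjusted p = 0.0579 and 0.0560). OGDH was called lower with RPKM as deposited, at -1.30 (adjusted p = 0.0396), and by voom, at -1.06 (adjusted p = 0.0447). CS, DLAT, SDHA and PC had changes of -0.26, -0.21, 0.026 and 0.038, with adjusted p from 0.549 to 0.938. The mitochondrial MDH2, IDH2 and GOT2 were at 0.15, 0.68 and 0.22 and did not pass, while cytosolic MDH1 rose, and a difference between the forms was not tested.

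**Figure D5:**
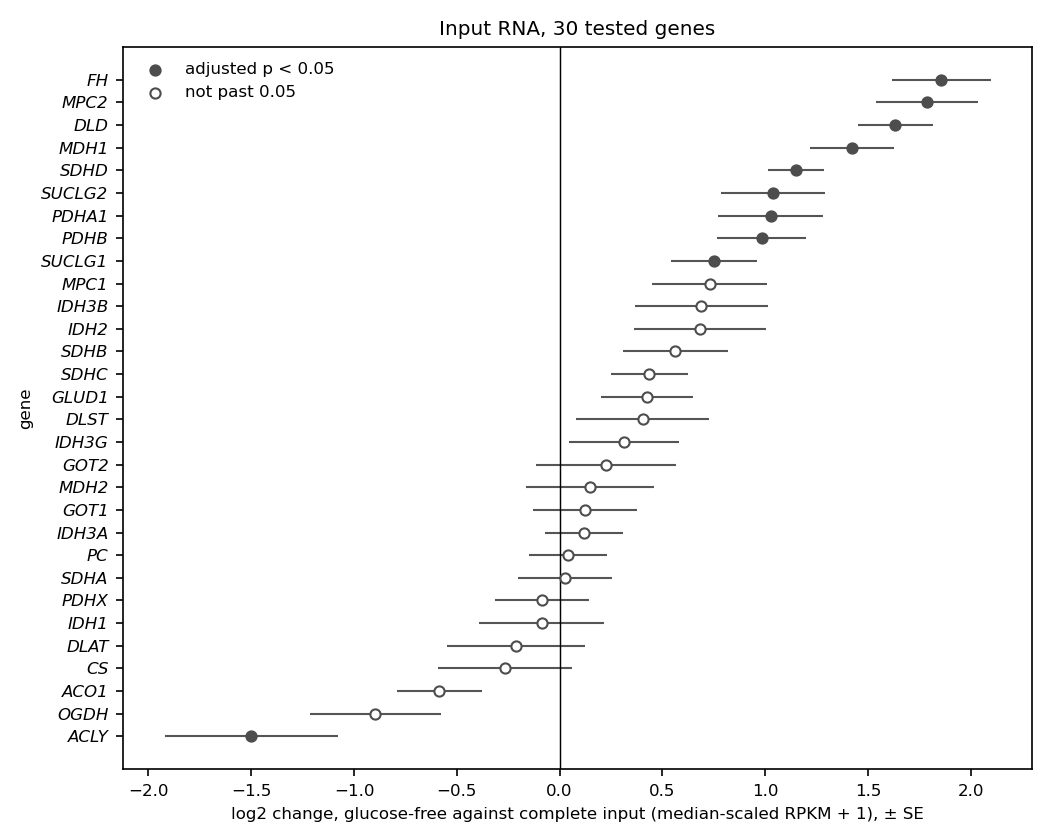
Log2 change of input RNA in glucose-free against complete medium (x axis, median-scaled RPKM + 1, with its SE) for the 30 tested genes (y axis), with genes past the threshold marked. FH, MPC2, DLD and MDH1 lie above 1.4 and ACLY at -1.50; with RPKM as deposited the median of the 30 is -0.24 and 3 genes are called higher and 2 lower.

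Other genes of the pathway, 35 in all with 26 tested, were counted in the same fits. In the complete IP 1 was higher and 10 lower, and in the glucose-free IP 4 were higher and 10 lower relative to the median gene, whereas with RPKM as deposited 14 were higher and 2 lower, and 22 higher and 0 lower. The shares of all tested genes were those given above, 30.0% higher and 29.9% lower in the complete IP and 27.6% and 32.2% in the glucose-free IP, and with RPKM as deposited 63.6% and 81.7% higher. SLC25A11, the mitochondrial oxoglutarate carrier, was at -2.59 and -1.62, and SLC25A1, the citrate carrier, at -2.16 and -0.82, of which the glucose-free value of SLC25A1 did not pass; with RPKM as deposited both were higher in the glucose-free IP. PDPR, the regulator of pyruvate dehydrogenase phosphatase, was the gene higher in the complete IP, at 0.72 ± 0.166 (SE; adjusted p = 0.00514). In the glucose-free IP, the glutamine transporter SLC1A5 was higher, at 1.88 ± 0.523 (SE; adjusted p = 0.0127), as was the mitochondrial glutamate carrier SLC25A22, at 1.39 ± 0.368 (SE; adjusted p = 0.0101), and LIPT2, which attaches octanoyl groups on the way to lipoate, was lower, at -1.68 ± 0.374 (SE; adjusted p = 0.00430), and with RPKM as deposited at 0.35 (adjusted p = 0.304). For the difference of IP to input ratios between media, 1 of the 26 was higher and 1 lower, against 1.95% and 3.08% of all tested genes. With RPKM as deposited 9 were higher and 0 lower, against 29.3% and 3.08% of all tested genes. The ratio of SLC25A10, the dicarboxylate carrier, was higher in glucose-free than in complete medium, by 2.02 ± 0.369 (SE; adjusted p = 0.0235). That of the kinase PDK3 was lower, by -1.03 ± 0.245 (SE; adjusted p = 0.0494), and did not pass with RPKM as deposited, at -0.57 (adjusted p = 0.204). In the inputs 0 of the 26 were higher and 3 lower in glucose-free medium, against 18.4% and 15.6% of all tested genes. The 3 were SLC25A10 at -0.93 ± 0.261 (SE; adjusted p = 0.0258), PDPR at -0.72 ± 0.166 (SE; adjusted p = 0.0121) and SDHAF2, an assembly factor that attaches flavin to SDHA, at -0.51 ± 0.163 (SE; adjusted p = 0.0398). Of these, SLC25A10 and SDHAF2 were also lower with RPKM as deposited, but all 3 lost their call under other scalings. With log values centred after the log PDPR was at -0.24 (adjusted p = 0.419), SLC25A10 at -0.87 (adjusted p = 0.0968) and SDHAF2 at -0.43 (adjusted p = 0.116). None of the 3 passed with quantile normalization (adjusted p from 0.0513 to 0.0713).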

How the data were processed

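RNA from the input and from the anti-HA eIF3d immunoprecipitate was sequenced in 8 libraries of HEK293T cells. The authors deposited RPKM, 1 table per medium; cutadapt, HISAT2, SAMtools and the build GRCh38 are named per the submitters' processing notes. Not given in the sources used here are versions, the read counter, the annotation and any use of strand. The deposited files list 57998 and 57978 genes, and the 57978 in both were used.

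With exon lengths of GENCODE release 29, 97.5% to 98.0% of values up to 50 reads per library came out as whole reads within 0.02. The floor of 3 reads equals 0.0691 to 0.347 RPM (reads scaled to library size). As no molecular identifiers mark single molecules, it reflects counting error alone. Genes with a mean of at least 1 RPKM were tested, 10100 in all. Each library was scaled to 1 median, log2(scaled RPKM + 1) was taken, and the 4 groups were fitted together by limma 3.58.1 (R 4.3.3) with a prior variance that follows intensity and Benjamini-Hochberg adjustment over all tested genes and a threshold of 0.05. The pseudocount of 1 understates changes of low genes. This scaling was chosen knowing that an earlier fit of these data, centred after the log, called many unchanged genes in simulated data. The script was tested on simulated data. Of 2-fold changes put in, it recovered 27.5% for the complete IP, 3.5% for the glucose-free IP, 2% for the ratio difference and 18.5% for the inputs. At 4-fold these shares were 78%, 84.5%, 23.5% and 79%. A gene that was not called may therefore still have changed.

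The 34 genes and all lists were chosen with earlier results of these data known. Values per library are given for genes past the threshold in a comparison and for isoenzymes of different compartments, and other pathway genes are named for the 2 highest and 2 lowest changes that passed. CS and SDHA, which did not pass in the main comparisons, OGDH and the unfiltered SUCLA2 were added after their values were seen. Groups of 2 cannot reach an exact permutation p under 0.333, so no such test was used. Alternatives were other scalings, pseudocount, filter, libraries in the fit, a replicate block, each library left out, and removal of length and GC trends by splines with 5 degrees of freedom; voom on recovered reads, the ratios of subunits and the promoter motifs were added after seeing the data.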

Additional observations from a re-analysis of the deposited data

How the results depend on the processing

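Direction rests on the scaling. With RPKM as deposited, 12 genes were called higher and 4 lower in the complete IP (median log2 change 0.41), 21 and 1 in the glucose-free IP (0.91), 6 higher for the ratio difference (0.66), and 3 higher and 2 lower in the inputs (-0.24). This follows from the median shift that the scaling takes out. Of 30 single values each, 16 changed sign there in the complete IP, 24 in the glucose-free IP, 16 for the ratio difference and 13 in the inputs. Those that were past the threshold in at least 1 of the 2 fits were, in the complete IP, CS 1.29, SDHA 1.15, DLD 0.57, FH 0.30, IDH3B 0.0014, OGDH 1.44, GOT1 0.28, GOT2 0.25, PDHA1 1.11, SDHC 0.14, GLUD1 1.29, IDH3A 0.64 and PC 0.85. In the glucose-free IP they were MDH1 0.47, MPC1 0.46, SDHA 1.80, DLD 0.92, FH 0.91, IDH3B 0.83, PDHX 1.24, DLST 1.95, GOT1 0.75, ACO1 0.67, GOT2 1.72, ACLY 2.50, PDHA1 1.26, IDH1 0.78, MPC2 0.72, SDHC 1.12, MDH2 0.21, GLUD1 1.41, DLAT 1.35, IDH3A 0.63, PDHB 0.36, SUCLG2 0.89, IDH2 1.31 and SDHD 1.05. For the ratio difference they were MPC2 1.14 and SDHD 1.18, and in the inputs 0. Quantile normalization turned GOT2 in the glucose-free IP to 0.23, called 1 gene higher in the complete IP and 0 lower in the inputs, and gave medians of -0.66 in the glucose-free IP and 0.068 in the inputs. Centring after the log called 5 genes higher in the inputs (median 0.17).

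A pseudocount of 0.1 kept all 120 single calls and gave medians of -1.01 and -1.40 in the IPs, where voom gave -1.08 and -1.41 and 2 genes lower in the inputs. No filter gave a median of -0.86 in the glucose-free IP and 0 lower in the inputs. Removal of length and GC trends gave a median of -0.97 in the complete IP, 0 lower in the inputs, and PC at -0.95 in the glucose-free IP, each the same with the replicate block. Apart from the construction of the scaling, the cause of these changes was not tested.

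Leaving out 1 library at a time gave 15 to 20 genes lower and 0 to 1 higher in the complete IP (median -0.76 to -0.32), 17 to 23 lower and 0 higher in the glucose-free IP (-1.09 to -0.92), 0 to 3 lower and 0 higher for the ratio difference (-0.45 to -0.18), and 5 to 13 higher and 0 to 4 lower in the inputs (0.13 to 0.48). A group with 1 library left was assumed to vary like the others. Of 960 single values, 902 kept their call, 33 passed only there and 25 lost it.

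The replicate number as a block changed none of the 120 single calls and gave 15 genes lower in the complete IP and 20 in the glucose-free IP. Same-numbered libraries correlated in their deviations at -0.0965 to 0.135, not over 0.1 in every pair, and the labels give no pairing, so the numbers were not used as pairs; whether they share a culture or day was not tested. The planned quasi-likelihood count test was not run, since the deposited unit is RPKM; voom took its place. With 2 libraries per group, the ratio difference is the least precise of the comparisons. ME3, at 0 to 8 reads, is below what this depth can compare.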
